A study of Arabidopsis thaliana with 7 samples.

Results

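Transcript signals were ranked in the roots of nitrogen-starved wild-type Arabidopsis thaliana, from the 4 wild-type arrays among the 7 Affymetrix ATH1 arrays of the series. The members were all 4 arrays whose titles name the wild type, both treatments pooled, and no difference between treatments was tested. The series studied the response of roots to nitrate through the MADS-box transcription factor ANR1. All plants were starved of nitrogen for 2 days, and after 9 days of growth they were moved for 1 h to plates with 0 or 1 µM dexamethasone, a synthetic steroid. The wild type (ecotype labelled as a control, stock N906) gave 2 untreated arrays and 2 dexamethasone arrays, 1 of each in replicate 1 and in replicate 2. The other 3 arrays held roots of 1 transgenic line of ecotype C24, where the constitutive 35S promoter drives ANR1 joined to a rat glucocorticoid receptor domain. This line had 2 untreated arrays and 1 array with dexamethasone. Each array held RNA of 20 pooled plants, so the spread between arrays does not show the spread between plants. No array of nitrogen-fed roots was used here, so nothing below says how starvation changed a level.

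Cytosolic ribosomes make the proteins, mitochondria oxidise sugar sent from the shoot, and crucifer roots also store a beta-glucosidase in rod-shaped compartments of the endoplasmic reticulum called ER bodies, which is released to its substrates when a cell is broken. Under nitrogen starvation plant cells recycle protein and organelles, in part through autophagy, in which the ATG8 proteins coat the membrane that encloses the cargo.

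A signal is the linear brightness of a probe set, a group of short probes for 1 transcript. Probes differ in how strongly they bind, so the ranks below order signals and not numbers of messenger RNA molecules. In pooled root tissue, fewer cells of a type and less RNA per cell cannot be told apart. Of 22746 probe sets other than the 64 controls, 13513 (59.4%) were paired with a single gene by the annotation, and only these were ranked. The annotation left 8730 unlisted and gave several genes for 503. This matters at the top of the scale, because only 31 of the 100 brightest of all probe sets carried a single annotated gene, 9 carried several and 60 none. The brightest single-gene probe set stood at rank 4 of all probe sets.

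Among the 13513 ranked probe sets, 5288 (39.1%) had a mean signal of at least 50, the limit under which a probe set is called dim here. The median was 30.7, on a scale where the trimmed mean of each array was 100.0. The signal was concentrated in a small part of them, since 883 probe sets (6.53%) together held 50% of it. The 10 brightest held 1.96% ± 0.107 (SD, n = 4) of the annotated signal, the 100 brightest 13.5% ± 0.577 (SD, n = 4), and the 1000 brightest 52.7% ± 1.88 (SD, n = 4). The share of the 100 brightest was 13.4% and 12.8% on the untreated and dexamethasone arrays of replicate 1, and 13.7% and 14.2% on those of replicate 2. Both replicate 2 arrays thus lay above both replicate 1 arrays, and the dexamethasone arrays were the lowest and the highest of the 4. As a share of all probe sets without controls, annotated or not, the same 100 held 6.03% to 6.71%.

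**Figure D1:**
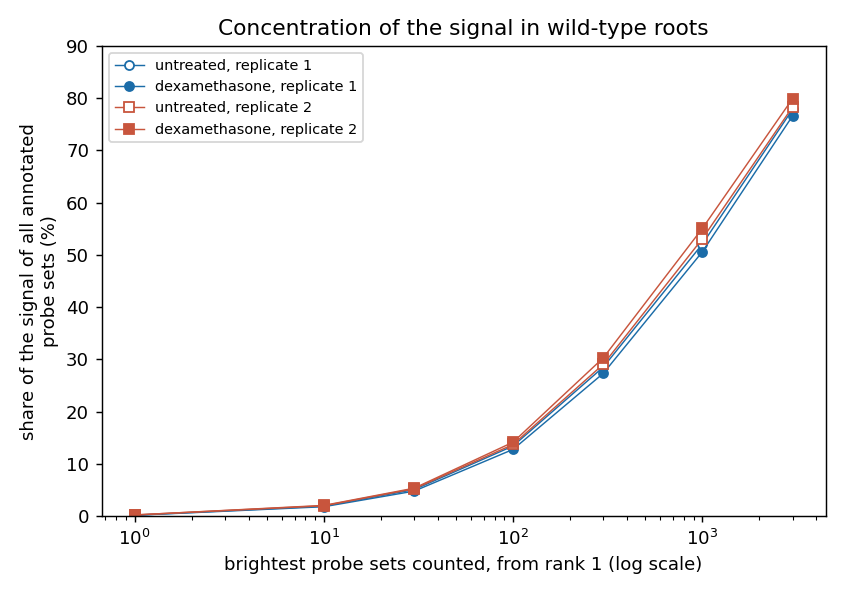
Share of the annotated signal (%) held by the brightest probe sets, counted from rank 1 on a log axis, with 1 line for each of the 4 wild-type arrays. The lines stay close together: the 1000 brightest held between 50.6% and 55.1% on every array.

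The brightest probe set was that of AT3G22240, which the annotation names only by its locus, with signals of 2749 and 2472 on the untreated and dexamethasone arrays of replicate 1 and 3461 and 3480.0 on those of replicate 2 (mean 3041 ± 509, SD, n = 4). Both replicate 2 arrays were higher than both replicate 1 arrays. LCR69 (AT2G02100), a small cysteine-rich protein of the plant defensin type, came next with 3180 and 2491 in replicate 1 and 3085 and 3399 in replicate 2 (mean 3039 ± 388, SD, n = 4), so its replicates overlapped. The means of these 2 probe sets differed by much less than the spread of either, and their order has no weight. PYK10 (AT3G09260), the ER body beta-glucosidase of roots, followed at 2933 ± 234 (SD, n = 4), and MT1C (AT1G07610), a metallothionein, one of the small proteins that bind metal ions through cysteine, at 2902 ± 183 (SD, n = 4). Rank 5 went to AT3G48140, again a bare locus, at 2749 ± 241 (SD, n = 4).

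All 10 of the brightest stayed within the first 30 on each of the 4 arrays. Ranks 6 to 10 belonged to AT5G20290, a locus on the list of cytosolic ribosomal proteins, JAL34 (AT3G16460), a jacalin-type lectin, AT3G60245, also on the ribosomal list, GAPC2 (AT1G13440), cytosolic glyceraldehyde-3-phosphate dehydrogenase of glycolysis, and AT4G23670. Their mean signals ran from 2548 down to 2418. AT4G23670 read 2294, 2257 and 2189 on 3 of the arrays and 2933 on the dexamethasone array of replicate 2, which stood apart from the other 3.

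The rest of the 30 brightest spanned means of 2394 to 1984 and included several enzymes of primary metabolism. TPI (AT3G55440), triose phosphate isomerase of glycolysis, had a mean of 2089 ± 104 (SD, n = 4), and cICDH (AT1G65930), the cytosolic isocitrate dehydrogenase that yields 2-oxoglutarate, a carbon skeleton for ammonium assimilation, had 2065 ± 103 (SD, n = 4). SAMDC (AT3G02470), S-adenosylmethionine decarboxylase of polyamine synthesis, read 2403 and 2113 in replicate 1 and 2029 and 1728 in replicate 2, both replicate 2 arrays being the lower. Proteins linked to stress were the dehydrins COR47 (AT1G20440) at 2289 ± 51.7 (SD, n = 4) and LTI30 (AT3G50970) at 2169 ± 183 (SD, n = 4), the peroxidase PRXR1 (AT4G21960) at 2337 ± 117 (SD, n = 4) and the osmotin-like OSM34 (AT4G11650) at 2059 ± 209 (SD, n = 4). The second lectin JAL33 (AT3G16450), the second defensin-type LCR68 (AT2G02130) and cytochrome c, CYTC-1 (AT1G22840), were also among them. The remaining members of the 30 were ribosomal-list loci AT3G09200, AT1G52300, AT5G27700, AT4G27090 and AT5G15200, respiratory-list loci AT4G37830 and AT2G47380, and AT5G64400, AT1G48750 and AT5G64100, which are on no list and have no other name in the annotation.

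**Figure D2:**
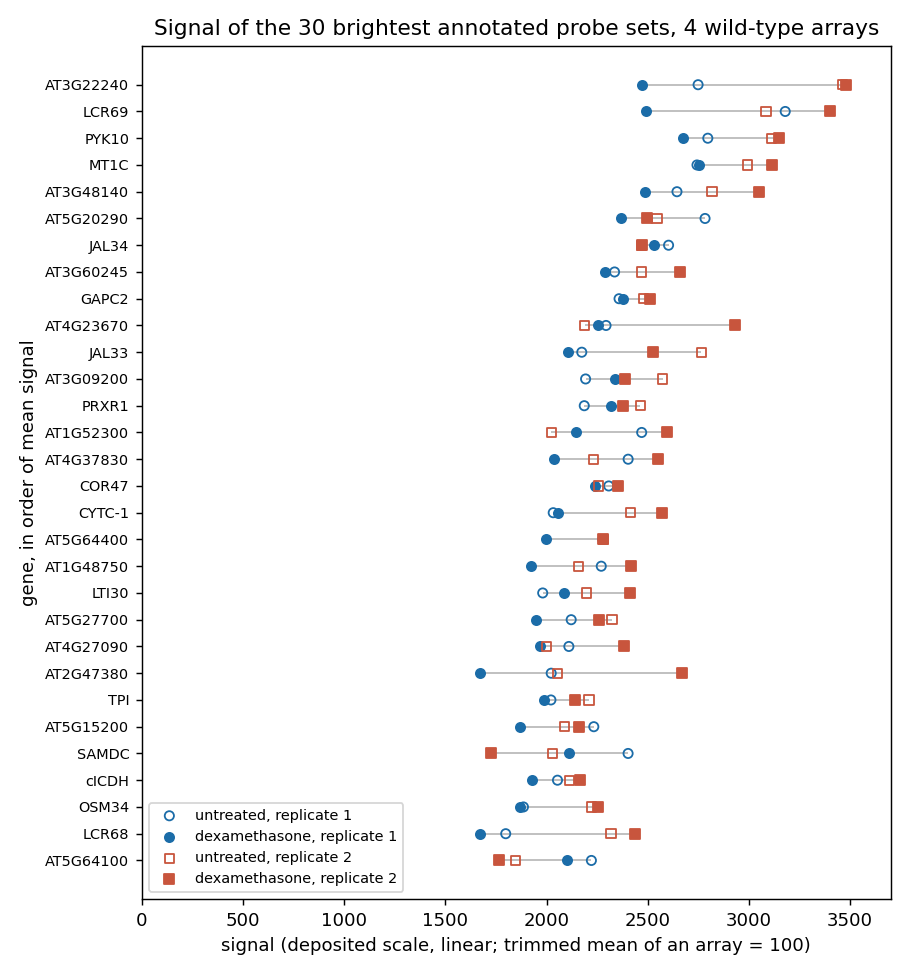
Linear signal of the 30 brightest annotated probe sets, ordered by mean, with 1 point for each of the 4 wild-type arrays and a grey line from the lowest to the highest. Ranges overlap down the whole order, from AT3G22240 (mean 3041) to AT5G64100 (mean 1984), so neighbouring ranks are not separated.

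Membership at the limit of the 100 brightest was a matter of small differences. Rank 100, AT4G21105, had a mean of 1421, and AT1G16180, the first outside, had a mean of 1415. On single arrays 85, 85, 91 and 91 of the 100 were in that array's own first 100, 70 were there on all 4 arrays, and all 100 were within the first 200 of each. Only 22 of the 100 had a name other than their locus. On at least 1 of the gene lists described next stood 57, which held 58.1% of the signal of the 100. Several of these lists were written wholly or partly with the ranking in view, so this coverage carries no information beyond the values. The share of all ranked probe sets on a list is not given here.

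Ribosomal proteins were the leading group. The list held 235 loci of cytosolic ribosomal proteins, of which 133 had a ranked probe set. Of these, 116 were at 50 or more, 36 were in the 100 brightest and 99 in the 1000 brightest; over all ranked probe sets the corresponding shares were 39.1%, 0.740% and 7.40%. Together the 133 held 9.09% ± 0.495 (SD, n = 4) of the annotated signal, and the 36 held 34.7% of the signal of the 100 brightest. Large-subunit proteins (85 probe sets, 25 in the first 100) held 5.92% ± 0.307 and small-subunit proteins (48 probe sets, 11 in the first 100) held 3.18% ± 0.232 (SD, n = 4 each).

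The most intense ribosomal signals were those of AT5G20290, at 2783, 2367, 2546 and 2497 on the untreated and dexamethasone arrays of replicate 1 and then of replicate 2, AT3G60245 at 2336, 2289.9, 2469 and 2659, and AT3G09200 at 2193, 2339, 2574 and 2386. Each of the 3 was highest on a different array. The family was far from uniform, since the quartiles of the 133 mean signals were 289.7 and 1438 around a median of 962, and 17 probe sets were dim. Many ribosomal proteins of Arabidopsis are encoded by several near-identical genes, so a probe set may read more than its named gene. None of the 100 brightest ended in _s_at or _x_at, the suffixes that mark shared probes. Only 2.09% of all ranked probe sets did, so this count says little about shared probes. Among the 100 brightest of all probe sets without controls, annotated or not, 18 did.

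The ribosomal share crossed treatment and replicate. It was 9.60% and 8.62% on the untreated and dexamethasone arrays of replicate 1 and 8.73% and 9.44% on those of replicate 2. Among the 116 at 50 or more, the highest signal was on the untreated array of replicate 1 in 56 and on the dexamethasone array of replicate 2 in 47, and the lowest was on the dexamethasone array of replicate 1 in 56 and on the untreated array of replicate 2 in 46. Over the 5288 probe sets at 50 or more, these arrays were the highest in 1265 and 1607 and the lowest in 1315 and 1165. PGY1 (AT2G27530), a large-subunit protein known for mutants with altered leaf shape, read 1517, 1486, 1429 and 1712, highest on the dexamethasone array of replicate 2 and lowest on the untreated one. The 3 line arrays held ribosomal shares of 8.03% to 9.67%, a range that covered that of the wild type.

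Among the lists, respiration held the next largest share. Of 78 listed loci of the mitochondrial respiratory chain, 52 had a ranked probe set, 50 were at 50 or more, 8 were in the 100 brightest and 41 in the 1000 brightest, and together they held 3.45% ± 0.292 (SD, n = 4) of the signal. The list was written partly with the ranking in view, so its counts among the brightest carry no information beyond the values. CYTC-1, the soluble carrier that passes electrons to the terminal oxidase, read 2033 and 2055 in replicate 1 and 2416 and 2572 in replicate 2. The respiratory-list loci AT4G37830 and AT2G47380 had means of 2306 ± 222 and 2105 ± 416 (SD, n = 4 each). MPPBETA (AT3G02090), a processing peptidase that in plants is built into the cytochrome bc1 complex, read 1211 and 1248 in replicate 1 against 1697 and 1676 in replicate 2. The replicates overlapped in AT4G37830 and in none of the other 3 named here. The share of the list was 3.30% and 3.16% in replicate 1 and 3.54% and 3.82% in replicate 2.

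A list of glycolysis, citrate cycle and cytosolic acetyl-CoA genes, drawn from names seen in the ranked table, held 1.12% ± 0.0293 (SD, n = 4) of the signal in 17 probe sets. GAPC2 read 2358 and 2378 in replicate 1 and 2480 and 2512 in replicate 2. Next to it and to TPI and cICDH, MAB1 (AT5G50850), a subunit of mitochondrial pyruvate dehydrogenase, had 1452 ± 152 (SD, n = 4). Because the list was written from the ranking, its high ranks carry no information beyond the values.

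The ER body group was small and bright. Of 17 listed loci 7 had a ranked probe set, 6 of them at 50 or more and 4 in the 100 brightest. Over all ranked probe sets the corresponding shares were 39.1% and 0.740%. The list was compiled with earlier results of these data known, so its counts carry no information beyond the values. Together the 7 held 0.787% ± 0.0209 (SD, n = 4) of the signal. PYK10 read 2797 and 2674 in replicate 1 and 3112 and 3148 in replicate 2, and alone held 27.1% of the signal of the group. JAL34 and JAL33, lectins that aggregate with PYK10 when cells are broken, are neighbouring genes; JAL34 read 2603, 2529, 2469 and 2471 and JAL33 2174, 2108, 2765 and 2527, in the same order of arrays. On both replicate 2 arrays JAL34 was lower and JAL33 higher than on both replicate 1 arrays, with ratios of replicate 2 to replicate 1 of 0.963 and 1.24. Of the 5288 probe sets at 50 or more, 32% were lower in this way and 28.1% higher. JAL22, a further lectin, had 1559 ± 63.6, NAI2, needed to form ER bodies, 1103 ± 132, and NAI1, the transcription factor required for them, 316 ± 17.7 (SD, n = 4 each).

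Other families reached the 100 brightest through 1 or 2 members. The defensin-like list had 12 ranked probe sets, of which 8 were dim, and LCR69 alone held 55.5% of its signal; LCR68 read 1798 and 1672 in replicate 1 and 2319 and 2438 in replicate 2, PDF2.5 had 219.9 ± 18.8 (SD, n = 4). The beta-glucosidases likewise rested on PYK10, with 57.8% of the signal of 21 probe sets, ahead of BGLU15 at 775 ± 172 and BGLU16 at 417 ± 51.0 (SD, n = 4 each). Among glutathione transferases, enzymes that conjugate reactive compounds, GSTU22 (AT1G78340) was alone in the 100 brightest with 1451 ± 344, and GSTU26 and GSTU27 followed at 645 ± 77.5 and 449 ± 30.9 (SD, n = 4 each). Cold and drought proteins, also drawn from names in the ranking, were led by COR47 and LTI30, then AT1G54410 at 1383 ± 408 (SD, n = 4).

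Several families had no member among the 100 brightest. The methionine sulfoxide reductases of type B, which repair oxidised methionine, were led by MSRB9 at 1407 ± 136, just under the limit at rank 104, MSRB5 at 1152 ± 207 and MSRB6 at 970 ± 60.5 (SD, n = 4 each). All 9 ranked ATG8 probe sets were at 50 or more, beside 39.1% of all ranked probe sets. The brightest were ATG8F at 701 ± 22.8, APG8H at 665 ± 176 and APG8A at 646 ± 91.8 (SD, n = 4 each). The lowest array was the dexamethasone array of replicate 1 in 7 of the 9. The highest was the dexamethasone array of replicate 2 in 8 of the 9. Of the 5288 probe sets at 50 or more, these arrays were the lowest in 1315 and the highest in 1607.

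Proton pumps and membrane proteins of the mid range included AT4G02620 (1325 ± 187), VHA-A3 (769 ± 126), a membrane subunit of the vacuolar proton pump, and AT3G58730 (554 ± 150), all from a list of pump loci taken from the ranking, and the tetraspanins TET8 (956 ± 157), TET3 (389 ± 98.0) and TET7 (182 ± 31.7). Detoxifying and oxidising enzymes included ALDH7B4 (1025 ± 116), ALDH2C4 (852 ± 145) and ALDH10A9 (587 ± 30.1), aldehyde dehydrogenases, and the cytochromes P450 CYP71B6 (831 ± 66.9), CYP71B23 (308 ± 58.1) and CYP71B37 (153 ± 40.1). These are SDs over n = 4 arrays, as in the next paragraph.

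Growth and wall genes were led by TUA6 (935 ± 135), TUB9 (583 ± 37.9) and TUB1 (424 ± 18.3), which encode tubulins, and by XTH18 (657 ± 113), EXPB3 (388 ± 70.6) and EXGT-A3 (351 ± 65.3), which loosen or rejoin wall polymers. Sugar-transferring UGT74B1 (588 ± 183), which acts in glucosinolate synthesis, GT72B1 (561 ± 77.1) and UGT76B1 (534 ± 132) led 48 probe sets. The ubiquitin-conjugating enzymes UBC28 (896 ± 51.0), UBC30 (594 ± 62.5) and UBC22 (423 ± 17.4), the carboxypeptidase-like SCPL49 (654 ± 85.0), scpl29 (494 ± 63.8) and scpl48 (426 ± 87.3), and the signalling peptides RALFL32 (728 ± 219.9), RALFL22 (702 ± 253) and RALFL33 (455 ± 144) completed the lists. These 3 RALF-like peptides were each higher on both replicate 2 arrays than on both replicate 1 arrays, as 28.1% of the 5288 probe sets at 50 or more were. Of 70 transcription factor probe sets 19 (27.1%) were at 50 or more, beside 39.1% of all ranked probe sets, led by BZIP53 (692 ± 41.7), bHLH115 (423 ± 36.5) and WRKY6 (294 ± 88.6).

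**Figure D3:**
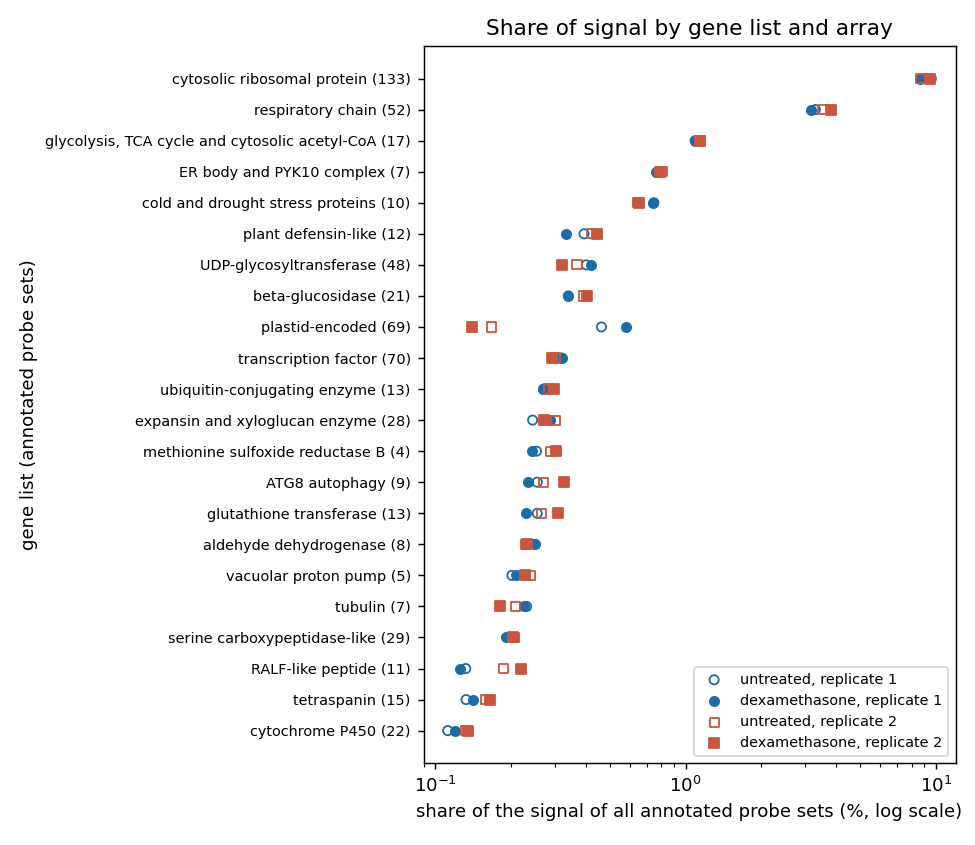
Share of the annotated signal (%, log axis) held by 22 gene lists, with the number of ranked probe sets in parentheses and 1 point for each wild-type array. Ribosomal proteins (9.09%) and the respiratory chain (3.45%) lead, and the plastid-encoded list has the widest spread, from 0.141% to 0.579%.

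Plastid-encoded genes were the group whose level depended most on the array. They held 0.461% and 0.579% of the signal on the untreated and dexamethasone arrays of replicate 1 but 0.168% and 0.141% on those of replicate 2. Of 69 probe sets 24 were at 50 or more, and in all 24 both replicate 2 signals lay below both replicate 1 signals, which 32% of the 5288 probe sets at 50 or more also showed. The brightest were psbM, of photosystem II, at 1186, 946, 723 and 599.5 in the order above, petB, cytochrome b6, at 401, 754, 173 and 95.4, and rps3, a plastid ribosomal protein, at 369.7, 403.5, 133.5 and 246. No other list of the 22 spread as widely over the arrays. The limit of 50 was set on the mean over all wild-type arrays, so members of the 24 could pass it through replicate 1 alone. For the 24 the median ratio of replicate 2 to replicate 1 was 0.229. The dim probe sets of the list were not compared in this way, so the count of 24 does not stand for all 69.

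The tissue label was set against markers. Of 30 root-defining genes only 3 had a ranked probe set, and all were at 50 or more: PYK10 at 2933, EXPA18, an expansin of root hair cells, at 194, 177, 307 and 313, and EXPA7, its relative in the same cells, at 113, 128, 65.0 and 38.2. Their summed signal was 2979 to 3500 over the arrays, nearly all of it from PYK10, already at rank 3. EXPA18 was higher and EXPA7 lower on both replicate 2 arrays. The mean of EXPA7, 85.85, was below those of the leaf genes RCA (172.3) and LHCB4.1 (92.1), named next. Of 24 leaf mesophyll genes 3 had one; RCA, Rubisco activase, read 229.9, 235, 121 and 104, LHCB4.1, an antenna protein, 119.5, 101.1, 83.9 and 63.9, and PSAN, of photosystem I, was dim at 54.6, 40.9, 36.2 and 45.7, giving a summed signal of 213 to 404. Rubisco activase and the antenna protein, like the plastid-encoded list, were lower on both replicate 2 arrays, whereas the replicates of PSAN overlapped, and the part of shoot or green tissue in this was not tested. No flower or seed marker had a ranked probe set, so those lists checked nothing here. Of 44 genes of nitrogen uptake and assimilation only NRT2.5, a nitrate transporter gene known to be induced in starved plants, could be read, and its signals of 15.6, 18.3, 19.0 and 18.2 were dim on every array.

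The 100 brightest varied less over the 4 arrays than the other probe sets at 50 or more. The median SD of their log2 signals was 0.13 and the median ratio of highest to lowest array 1.23, beside 0.20 and 1.36 for the 5188 outside the 100. No member reached a ratio of 2, and 8 reached 1.5, whereas 430 (8.29%) and 1679 (32.4%) of the 5188 did. Within the groups the median ratio was 1.15 for the 6 ER body probe sets at 50 or more, 1.27 for the 116 ribosomal, 1.38 for the 50 respiratory and 6.57 for the 24 plastid-encoded ones.

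By SD of log2 signal, the 5 narrowest of the 100 were the ribosomal-list locus AT2G34480, with 1974, 1931, 1922 and 1962 (ratio of highest to lowest array 1.03), COR47, with 2307, 2241, 2255 and 2354 (1.05), AT3G02360 (1.05), AT4G19880 (1.06) and JAL34 (1.05). By the same measure the 5 widest were AT4G23680, with 1103, 1231, 1819 and 2099 (1.90), GSTU22, with 1304, 1078, 1541 and 1883 (1.75), AT3G52730 (1.71), AT3G08610 (1.62) and AT2G18370 (1.57). In all 5 of the wide members both replicate 2 arrays were above both replicate 1 arrays. The same held for 48 of the 100 and for 28.1% of the 5288 probe sets that were not dim. The 5 were picked for a wide spread over arrays of both replicates, so the selection may itself favour such members. AT3G52730 and AT3G08610 are on the respiratory list. AT4G23680 neighbours AT4G23670 of rank 10, and 3 further pairs of the 100 lie within 3 genes of each other: JAL34 and JAL33, LCR69 and LCR68, and the ribosomal-list loci AT2G27710 and AT2G27720.

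Replicate number separated more of the members than treatment did. Both replicate 2 signals lay above both replicate 1 signals in 48 of the 100 and below them in 11, beside 28.1% and 32% of the 5288 probe sets at 50 or more. Of the 64 members off the ribosomal list 39 were above and 7 below, and of the 36 on it 9 were above and 4 below. Both dexamethasone signals lay above both untreated ones in 6 of the 100 and below them in 4, near the 7.05% and 7.36% found over the 5288. Log2 signals of the 5288 correlated at 0.973 to 0.982 between wild-type arrays of the same replicate and at 0.909 to 0.942 between replicates, which share probe affinities and are not independent points. RNA quality differed along the same line: the 3'/5' signal ratio of the GAPDH control was at most 1.12 in replicate 1 and 1.26 and 1.33 in replicate 2, and that of ubiquitin 1.25 and 1.44 against 1.77 and 1.91, while that of actin overlapped, with 0.528 and 0.251 against 0.346 and 0.876. The part of RNA quality in these counts was not tested.

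**Figure D4:**
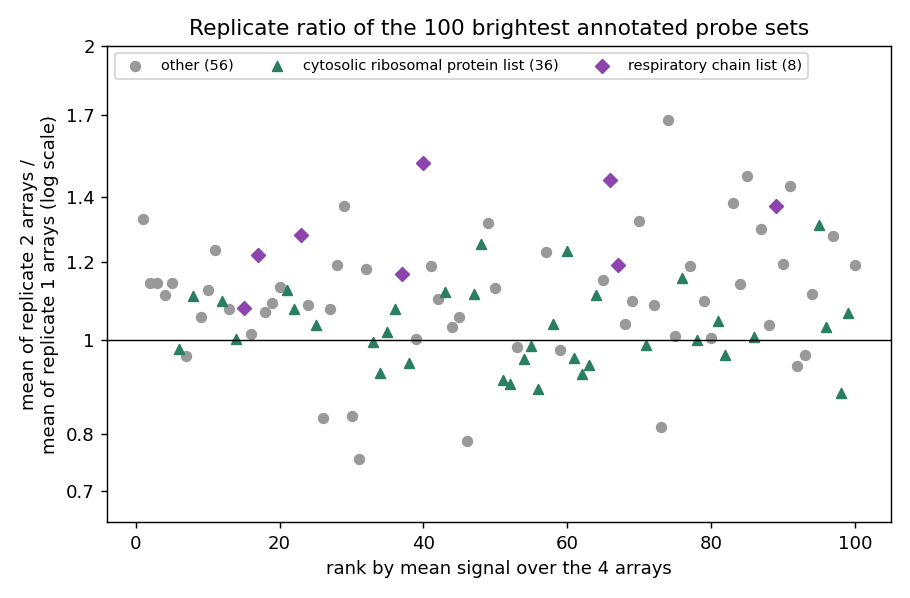
Mean signal of the replicate 2 arrays over that of the replicate 1 arrays (log axis) against rank, for the 100 brightest annotated probe sets. The 36 ribosomal-list members scatter around 1 (median 1.01). The 64 others have a median of 1.13, and all 8 respiratory-list members lie above 1. The median was 1.09 for all 100 and 0.990 for the 5288 probe sets that were not dim. The respiratory list was written partly with the ranking in view, so its count carries no information beyond the values.

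The genes of the 100 brightest probe sets were shorter than those of the other probe sets at 50 or more, most of all on the ribosomal list. The median gene length in the RefSeq annotation (TAIR10.1) was 1773 bases for the 100 brightest, 1991 for the rest of the 1000 brightest, 2299 for the other probe sets at 50 or more and 1993 for the dim ones. Among the 100 brightest 9 genes (9.00%) exceeded 3000 bases, beside 29.7% of the others at 50 or more. Ribosomal-list members had a median of 1654 and the other 64 a median of 1967, close to that of the dim ones. None of the ribosomal-list members exceeded 3000 bases, against 14.1% of the other 64. Over all ranked probe sets the median was 2117.

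The same probe sets led in the transgenic line. Of the 100, 93 were among the 100 brightest of the line's mean, all 100 were among its first 200, and their line mean over wild-type mean ran from 0.821 to 1.13 with a median of 0.978. The line's mean leans on replicate 2, while the wild-type mean weighs both replicates equally, so replicate enters these ratios. The lowest and highest were AT2G43590 and AT4G23680, whose ratios of replicate 2 to replicate 1 in the wild type were 0.755 and 1.68. In the line the 100 held 12.6%, 14.1% and 12.9% of the annotated signal on the untreated arrays of replicates 1 and 2 and the dexamethasone array of replicate 2, beside 12.8% to 14.2% in the wild type. The wild type's ecotype is labelled only as a control, with the stock number N906. Whether that stock shares the background of the line was not looked up here, and the difference was not tested.

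**Figure D5:**
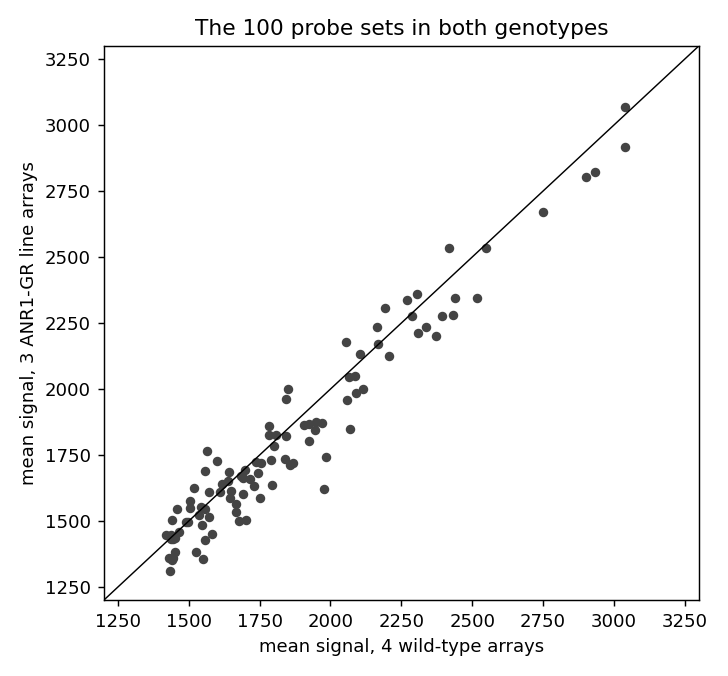
Mean signal over the 3 ANR1-GR line arrays against mean signal over the 4 wild-type arrays for the 100 brightest annotated probe sets, with the line of equal signal. All points lie close to that line, with ratios from 0.821 to 1.13.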

How the data were processed

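Root RNA was hybridised to 7 one-colour ATH1 arrays, and the 4 wild-type arrays were described here. The authors deposited intensity on a linear scale for every probe set of an array, and in their table the 2% trimmed mean of each array is 100.0. Which software summarised the probes is not given in the sources used here. Their number (4) limits the precision. The labels state biological replicates, and nothing further says how they were kept apart, so the SD may be partly technical.

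Controls were removed, the remaining probe sets were named from the platform annotation where it gave a single gene, and 13436 of 13513 matched RefSeq by gene ID. Means were ranked, with no test. Named were the 30 brightest, the 3 brightest members of each list at 50 or more, the 5 widest and 5 narrowest of the 100 brightest, rank 100 and the one after it, and all markers with a probe set; JAL22, NAI2, NAI1, PGY1, MPPBETA, MAB1 and the genes of neighbouring pairs were added after their values were seen.

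Members and lists were chosen with earlier results of these data known. Families were to be read from RefSeq descriptions, but the table holds none. They were therefore defined by symbol patterns and by locus lists compiled from general knowledge after the table was seen, and those of respiration, glycolysis, cold and drought, and vacuolar pumps were written wholly or partly with the ranking in view. The calculations ran in Python 3.11.15 with pandas 2.3.3, numpy 2.4.6 and scipy 1.17.1, and were tested on simulated data. Alternatives covered the averaging, normalization, dim filter, shared probes, unannotated probe sets, subsets of arrays and 1 value per gene.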

Additional observations from a re-analysis of the deposited data

Results flagged for a closer look

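Of 55 values checked over the 4 wild-type arrays (shares of the brightest sets, shares of the gene lists and signals of the 30 brightest), 2 had a single array far from the rest. Chance alone gives about 1 such case in 20, and the 4 arrays pool 2 treatments and 2 replicates. AT4G23670 read 2933 on the dexamethasone array of replicate 2 and 2189 to 2294 on the other 3, a gap of 0.859 of its range. AT5G64400 read 1996 on the dexamethasone array of replicate 1 and 2277 to 2281 on the other 3, a gap of 0.988 of its range.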

How the results depend on the processing

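No paired analysis was possible because the results come from no test. Each of 4 results was recomputed under 17 alternatives. The share of the 100 brightest stayed within the spread over arrays in 15; it was 15.0% over probe sets of at least 50 only and 8.11% over all probe sets without controls, of which 31 were shared with the annotated 100. The ribosomal share behaved alike, at 10.0% and 4.28%, where the total it is divided by is smaller and larger. The number of probe sets holding 50% of the signal was 883, within 1.5 times under 16, and 1517 over all probe sets. The median SD of log2 signal, 0.13, moved beyond its spread under 7 of 17, to 0.11 after quantile normalization, 0.10 and 0.15 within the untreated and the treated pair, 0.081 within replicate 1 and 0.079 within replicate 2, and 0.18 and 0.17 on the line arrays with their own and with the wild-type 100. The pairs and single replicates give an SD from 2 arrays and the line from 3, against 4 for the main value. These SDs are therefore not directly comparable with 0.13, and the part of array number was not tested. The geometric mean, the dim filter, the removal of shared probes and 1 value per gene left the 100 members and the arrays unchanged. The median SD could therefore not move under them. Leaving out 1 array gave 13.4% to 13.8%, 8.93% to 9.26%, 853 to 914 and 0.12 to 0.14. Probe affinity, shared probes of near-identical genes and the unlisted probe sets limit every rank. With 4 arrays from 2 replicates the SD is rough.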
